A study of Mus musculus with 6 samples.

Results

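The neighbouring gene models, uc007kmp.1 and uc007kmq.2, were followed across mouse alveolar macrophages cultured with or without hematin. They are 2 of 28427 gene models in the deposited tables and were taken by identifier. They were chosen by their levels in mock and hematin samples, which were known from earlier results of these data, so the contrast between treatments is given for them as a description, without a p-value. The comparison asked how a short heme exposure changes transcription in these cells.

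The cells were CD11c+ Siglec-F+ macrophages sorted from the lung lavage of C57BL/6J mice, and the lavage of 3 mice was pooled for each sample. Mock samples (n = 3) received the solvent of hematin, which was 0.1 M NaOH, and hematin samples (n = 3) received 40 μM hematin. Both groups were kept in complete RPMI for 2 h, and the labels name no genotype other than the strain. Controls are named untreated in the design text of the series but solvent-treated in the treatment protocol. The samples are numbered 1 to 3 within a group in order of deposit, and a number does not pair a mock with a hematin sample. Spread between samples is spread between pools and their handling, not between single mice. In bulk RNA, more cells that express a transcript and more transcript per cell cannot be told apart.

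Alveolar macrophages are the resident phagocytes of the airspaces, where they clear inhaled particles, surfactant and red cells that leak into the lung. Red cells bring heme, an iron porphyrin that can damage membranes when free, and macrophages are known to take it up and degrade it with heme oxygenase. Hematin, used here as the source of heme, carries the iron in its oxidised state with a hydroxide attached. The files name models by UCSC-style transcript identifiers and do not pair them with gene names. A search of 5 reference tables with all 55116 identifiers gave 0 matches. The pair is therefore described without a gene name, function, coordinate or sequence, and the sorted cell type could not be checked against its markers.

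Both models hold 1 transcript, and no other model stands between them in identifier order. Their implied lengths are close to each other. The length that count, FPKM and library total imply was 784 to 785 bases for uc007kmp.1 and 776 to 777 bases for uc007kmq.2 over the 6 libraries. This is the length by which FPKM divides, and it need not equal the full length of the transcript. By this length the models are short. Among 2639 models with 1 transcript and at least 100 counts in every library, the median implied length was 2185 bases, and 9.25% were shorter than uc007kmp.1. FPKM divides a count by this length and by the library total, so it is the scale on which levels of the pair are compared below.

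The libraries held 22748791 to 36839446 expected counts, which are reads that the counting program divides among models. At these depths 3 counts, the floor used here for a count of 0, correspond to 0.0768 to 0.119 CPM, the count scaled to the TMM-adjusted library size; this floor covers counting error only. The libraries mock 3 and hematin 1 stood apart from the rest in earlier results of these data, so values without them are given where they bear on the pair. Of 12595 models tested across the table, 100 passed an adjusted p of 0.05 (edgeR quasi-likelihood test, Benjamini-Hochberg), or 0.794%, with 86 higher and 14 lower after hematin. The split depended on the scaling: plain library totals gave 68 higher and 147 lower, and limma-trend on FPKM gave 64 and 91 with a pseudocount of 1 and 70 and 115 with 0.1. The number of calls also moved with single libraries: it was 211 when hematin 1 was left out and 41, 21, 16 and 13 when hematin 3, mock 2, hematin 2 or mock 1 was left out.

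uc007kmp.1 was the more abundant of the pair in every library. Its FPKM was 15.8, 21.4 and 24.4 in mock 1, 2 and 3, and it was 73.5, 84.0 and 67.5 in hematin 1, 2 and 3. The lowest hematin value was 2.77 times the highest mock value, so the groups did not overlap. The mock mean was 20.5 ± 4.35 FPKM and the hematin mean 75.0 ± 8.33 FPKM (SD, n = 3 each), a ratio of 3.65. After hematin the model stood among the more abundant ones: its mean FPKM went from rank 3176 to rank 966 of the 28427 models.

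On the TMM-scaled CPM the groups again did not overlap. uc007kmp.1 had 11.7, 16.2 and 17.1 CPM without hematin and 57.8, 73.3 and 58.2 CPM with it. The fitted log2 fold change was 2.07 ± 0.17 (SE), or 4.21-fold. The FPKM ratio is smaller because FPKM follows plain library totals: with these totals the fitted log2 fold change of uc007kmp.1 was 1.87, and the median over the 12595 models was -0.20 in place of -0.0086 with TMM. In mock samples its expected counts were 457, 463 and 435. They hardly followed depth, since mock 1 held 1.62 times the total of mock 3 but 1.05 times its count of this model. Mock 1 is thus the low sample of its group on both scales.

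uc007kmq.2 was scarcer and showed a similar ratio between the groups. Mock 1, 2 and 3 had 4.02, 3.54 and 6.85 FPKM of this model, and hematin 1, 2 and 3 had 19, 18.4 and 14.5 FPKM. Again the groups did not overlap, and the lowest hematin value was 2.12 times the highest mock value, which was that of mock 3. The means were 4.80 ± 1.79 and 17.3 ± 2.43 FPKM (SD, n = 3 each), a ratio of 3.60. Its rank by mean FPKM went from 6984 to 3248.

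On the CPM scale uc007kmq.2 had 2.94, 2.67 and 4.76 without and 14.8, 15.9 and 12.4 with hematin, a log2 fold change of 2.06 ± 0.23 (SE), or 4.18-fold. These values rest on fewer reads. The lowest was 76 counts in mock 2, with an exact 95% Poisson interval of 59.9 to 95.1 counts, which covers counting error only. Without mock 3, the sample with the highest mock value, the log2 fold change was 2.35, and without both mock 3 and hematin 1 it was 2.34. For uc007kmp.1 the corresponding values were 2.18 and 2.25.

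**Figure D1:**
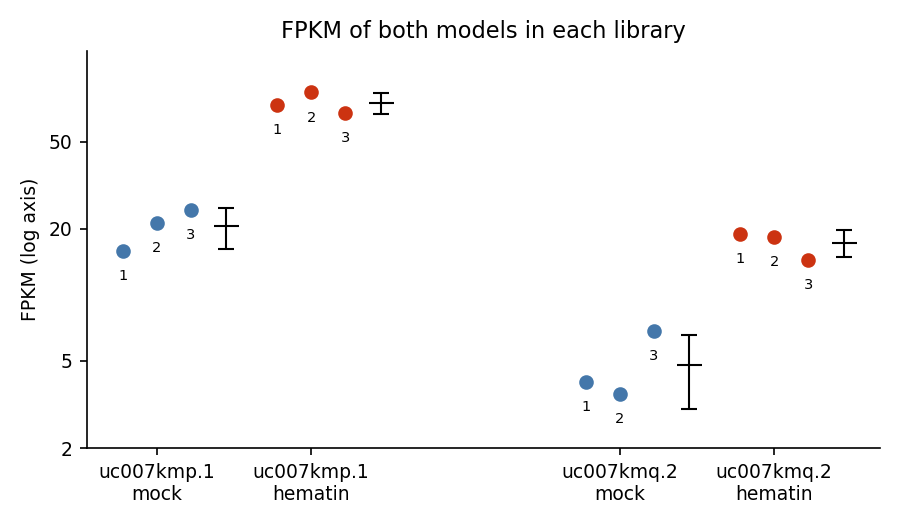
FPKM (log axis) of uc007kmp.1 and uc007kmq.2 in each library; points are single libraries with their number, and the bar to their right is the group mean with its SD (n = 3). Hematin samples lie above all mock samples for both models, from 67.5 FPKM upward for uc007kmp.1 and from 14.5 FPKM upward for uc007kmq.2.

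The non-overlap of the groups is what the choice of the pair brings with it and is read as no more than that. Over all tested models, hematin values lay wholly above mock values for 3.28% on the FPKM scale and for 9.75% on the CPM scale. Calls and ranks of the pair rest on the same choice and are likewise a description only. Both models were among the 86 higher calls, 0.683% of the models tested, and were the seventh and eighth largest rises among them by fold. Of all models tested, 15 had a higher fold change than uc007kmp.1 and 16 a higher one than uc007kmq.2, whether called or not. Of the 86, 9 reached 4-fold, and the pair supplied 2 of them.

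**Figure D2:**
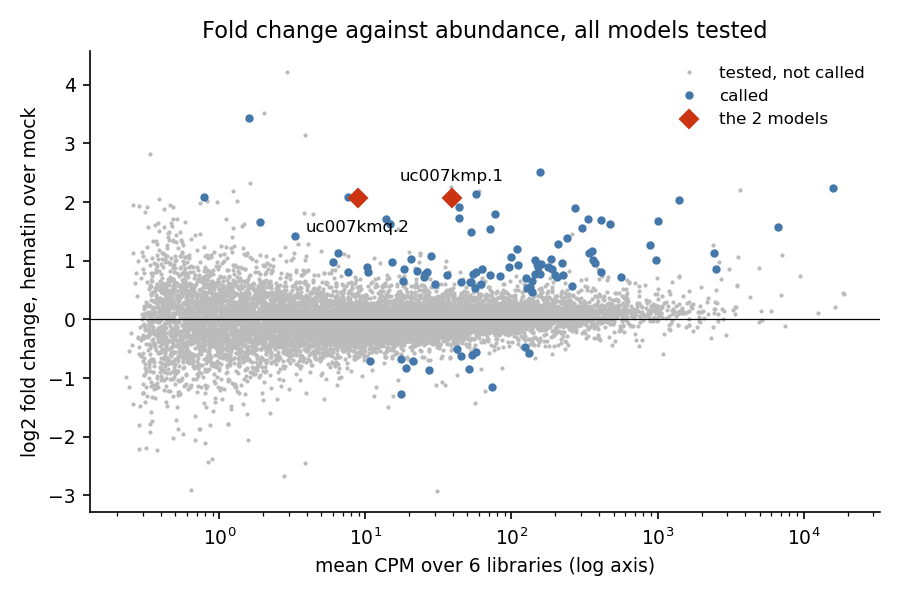
Log2 fold change of hematin over mock against mean CPM over the 6 libraries (log axis) for the 12595 models tested; blue points are the calls and red diamonds the pair. Both diamonds lie near a log2 fold change of 2 at different abundance, uc007kmq.2 to the left of uc007kmp.1.

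The proportion between the 2 models was similar in mock and hematin samples. Per length, uc007kmp.1 exceeded uc007kmq.2 by a factor of 3.94, 6.04 and 3.56 in mock 1, 2 and 3, and of 3.87, 4.57 and 4.65 in hematin 1, 2 and 3. The 3 hematin ratios lie inside the range of the mock ratios, and mock 2 has the highest. The mean ratio was 4.51 ± 1.34 for the mock group and 4.37 ± 0.432 for the hematin group (SD, n = 3 each). The fitted log2 fold changes differed by 0.012 between the models. That difference ran from -0.17 without mock 3 to 0.22 without mock 2, so its sign depended on the library left out, and equal change is not shown by it.

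Within groups the pair did not keep a common order. In mock samples uc007kmp.1 had its lowest FPKM in mock 1, while uc007kmq.2 had its lowest in mock 2. Both had their highest mock FPKM in mock 3 and their lowest hematin FPKM in hematin 3; on the CPM scale the lowest hematin value of uc007kmp.1 was that of hematin 1. The spread within groups is that between libraries and includes counting error. Each library is a separate pool with its own handling, so differences between mice and in handling cannot be told apart. The coefficient of variation of CPM was 19.4% (mock) and 14.1% (hematin) for uc007kmp.1, where counting alone gives 4.71% and 2.43%. For uc007kmq.2 it was 33.0% and 12.5%, against 10.0% and 5.10% from counting. The fitted biological coefficient of variation was 15.8% for uc007kmp.1 and 19.9% for uc007kmq.2, beside 14.8% and 18.7% for the trend over models of like abundance. Because the fit draws the value of each model toward this trend, closeness to it is partly built in.

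The identifiers around the pair served as local background. Locus and nearness are meant here in identifier order only, because no coordinate was available. Besides the pair, 17 models have a first identifier that starts with uc007km, and 12 of them had too few counts to be tested. The models on either side of the pair, uc007kmo.1 and uc007kmr.2, had 0 counts in all 6 libraries. Including these, 5 of the 17 had no count in any library, and the other 7 untested models had at most 39 counts in a library. The pair therefore stood between models with few or no reads in either treatment.

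Among the 5 other models that could be tested, 0 passed in either direction, beside 0.794% of all models. At that share, 0 of 5 is no result about the locus. The fold changes lay between -0.20 and 0.16 on the log2 scale, with edgeR adjusted p-values of 0.456 to 0.919, and 0 had an unadjusted p under 0.05 by edgeR, DESeq2 or limma-voom with TMM or median-of-ratios scaling of all 6 libraries. Over all models tested, 14.1% had such an unadjusted p by edgeR with TMM scaling of all 6 libraries. Beside that share, 0 of 5 is again no result. Shares over all models in the fits that follow are not given here. At an unadjusted p under 0.05, edgeR with plain library totals gave 2, uc007kmz.1 at a log2 fold change of -0.39 and uc007kmy.1 at -0.29, and edgeR without hematin 1 gave 1, uc007kmd.1 at 0.22. Limma-trend gave 1, uc007kmz.1, at -0.34 on log2(FPKM + 1) and -0.43 on log2(FPKM + 0.1). When the filter on low counts was dropped, edgeR gave 1, the otherwise untested uc007kmt.2, whose counts lay mostly in mock 3. In all of these fits 0 passed after adjustment.

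The most abundant of the 5, uc007kmd.1, had 74.7, 77.5 and 77.4 FPKM without hematin and 72.7, 73.1 and 78.6 FPKM with it. Its groups overlapped, at a difference of 0.16 ± 0.09 on the log2 scale (SE) and an edgeR adjusted p of 0.456. After hematin, uc007kmp.1 thus had an FPKM near that of uc007kmd.1, whereas in mock samples it lay far below it. Nearest to the pair by identifier among the tested models were uc007kmh.1 before it and uc007kmy.1 after it. uc007kmh.1 had 0.24, 0.79 and 0.88 FPKM without and 0.36, 0.36 and 0.79 FPKM with hematin, a difference of -0.15 ± 0.47 on the log2 scale (SE), at an edgeR adjusted p of 0.919. uc007kmy.1 had 4.29, 4.27 and 4.38 FPKM without and 3.36, 3.58 and 3.62 FPKM with hematin. In FPKM its hematin values lay below its mock values, which also held for uc007kmz.1, beside 28.9% of all tested models; in CPM the groups overlapped for both. With TMM scaling its difference was -0.10 ± 0.11 on the log2 scale (SE), at an edgeR adjusted p of 0.732.

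**Figure D3:**
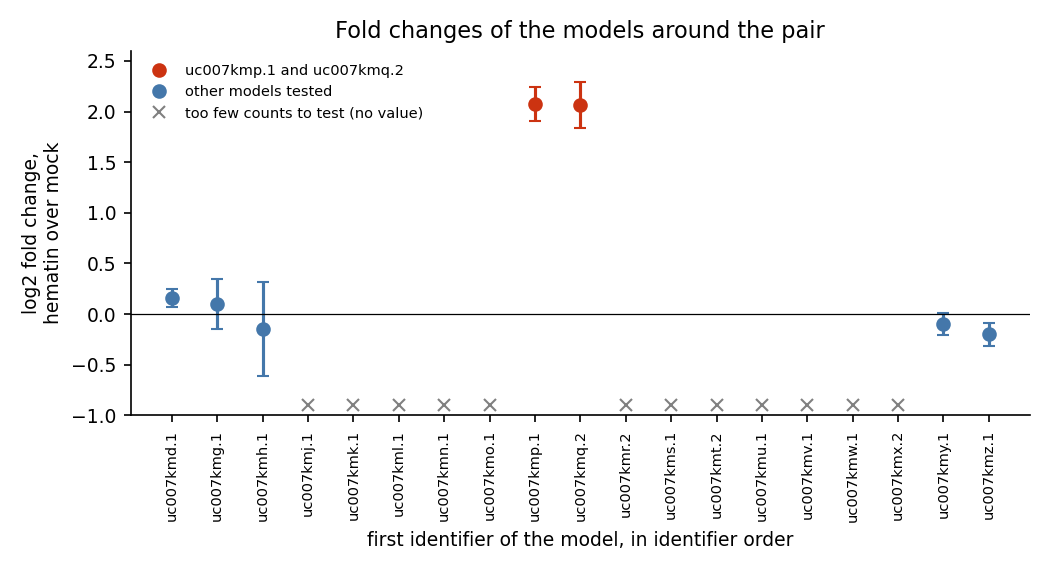
Log2 fold change of hematin over mock, with its SE, for the 19 models whose first identifier starts with uc007km, in identifier order; crosses at the lower edge are models with too few counts and carry no value. The pair lies at 2.07 and 2.06, and the 5 other tested models lie between -0.20 and 0.16.

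Pairs of neighbours that both passed were few. In identifier order 8140 neighbouring pairs had both models tested, and in 4 of them (0.0491%) both were called, always in the same direction, with 3 pairs higher and 1 lower. uc007kmp.1 and uc007kmq.2 form 1 of these 4, and among these 4 it is the only pair in which both models reached 4-fold. Since it was chosen with its levels known, its place among these 4 is a description and no result. The 2 fold changes within a called pair differed by 0.012 to 0.51 on the log2 scale. The number of such pairs was 11 without hematin 1, 1 without mock 2 or hematin 3, and 0 without mock 1 or hematin 2.

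Counting may divide reads among models that share sequence. A count that is not whole shows that some reads were divided, but its decimals do not show how many. The expected count was whole within 0.005 in 3 of 6 libraries for uc007kmp.1 and in 4 of 6 for uc007kmq.2, beside 37.4% of all nonzero values. The share over all values includes very low counts, so it is not a like comparison. The largest distance from a whole number was 0.18 and 0.35 counts. That distance stays small however many reads are divided, so how far sharing touches the pair is not known from it. The sources used here do not say whether counting used strand, so reads of an overlapping or antisense model could not be told apart from those of the pair.

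A small share of models followed the pair's pattern closely over the samples. Likeness was measured as the Pearson correlation of log2(CPM + 1) with the mean of the pair over the 6 samples, for 8583 other tested models of at least 5 CPM. It was 0.95 or more for 86 models, or 1.0%, and -0.95 or less for 80. At the same cut, Spearman correlation gave 11 (0.128%) and 23, and correlation of deviations from the group means gave 18 (0.21%) and 26. With 6 samples and no ties, Spearman correlation reaches 0.95 only if the order of all samples is identical. The cut is therefore stricter for it, and its numbers do not compare directly with those of Pearson correlation. The 6 samples share the split by treatment, so this is a description. The closest was uc009sxj.1 (r = 0.996), with 65.7, 68.9 and 70.7 CPM without and 84.8, 87.7 and 85.7 CPM with hematin. Next was uc009dmk.1 (r = 0.994), a model with 4 transcripts, with 10.6, 10.9 and 11.7 CPM without and 15.7, 15.3 and 15.1 CPM with hematin. By Spearman correlation both stood at 0.943, and by deviations from the group means they stood at 0.898 and 0.820, each below 0.95. Their log2 fold changes, 0.33 ± 0.07 and 0.48 ± 0.10 (SE), were far below those of the pair, and neither was among the 100 calls.

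**Figure D4:**
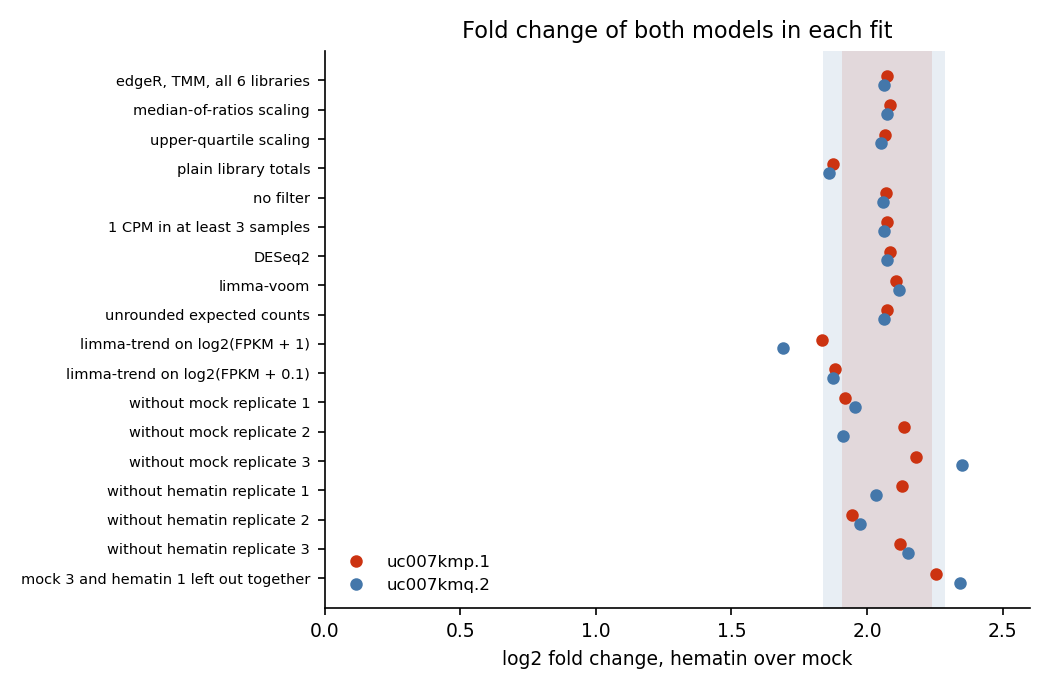
Log2 fold change of hematin over mock for uc007kmp.1 and uc007kmq.2 in each of 18 fits; shaded bands are the fitted value ± SE of each model with all 6 libraries. Values run from 1.83 to 2.25 for uc007kmp.1 and from 1.69 to 2.35 for uc007kmq.2.

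Over these fits the log2 fold change of uc007kmq.2 varied more (1.69 to 2.35) than that of uc007kmp.1 (1.83 to 2.25). The fits differ in scaling, filter, test and libraries used. uc007kmp.1 was in the called set in all 17 alternative fits. uc007kmq.2 was in it in 15 and was outside it without mock 1, at a log2 fold change of 1.95, and without hematin 2, at 1.97. With TMM scaling of all 6 libraries, edgeR called 0.794% of all models tested. The alternative fits called from 13 of 12826 models, without mock 1, to 396 of 12595, with DESeq2. Without hematin 2, 16 of 12986 models were called. Both fits that left uc007kmq.2 out thus called few models of any kind. Because the pair was chosen by its levels in these same libraries, the tally is a description and no support for its rise.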

How the data were processed

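RNA was sequenced from 3 mock and 3 hematin samples as single-end reads of 50 nt. The build was mm9 and the tools were RSEM 1.2.15, Bowtie 1.0.1, SAMtools 0.1.19 and bcl2fastq 2.15.0, per the submitters' processing notes. Per the file headers, the authors deposited for each gene model an expected count, an estimated number of reads that need not be whole, and an FPKM. The treatment label set each group.

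Expected counts were rounded and fitted over the whole table in R 4.3.3 with edgeR 4.0.16: filterByExpr, TMM scaling, glmQLFit and glmQLFTest without covariates, Benjamini-Hochberg threshold 0.05. The code of the fit was checked on simulated counts whose spread followed the trend, with no outlying library. That check does not cover the differences between single libraries seen here. The SE is the log2 fold change over the square root of F. Alternatives used DESeq2 1.42.0 and limma 3.58.1, other scalings and filters, and fewer libraries.

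Named models were the pair, tested models of the same identifier prefix, and the 2 models closest to the pair in pattern. Besides these, uc007kmo.1, uc007kmr.2, uc007kmt.2 and uc007kmu.1 were named after their values were seen. The members and lists were chosen with earlier results of these data known. Marker and pathway lists were not used, because identifiers are not paired with names.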

Additional observations from a re-analysis of the deposited data

How the results depend on the processing

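Fold changes of the pair kept their direction in all 17 alternative fits; that of uc007kmq.2 moved beyond the replicate SD in 1 of them, limma-trend on log2(FPKM + 1), at 1.69. That fit lacks TMM and adds a pseudocount: plain library totals gave 1.86 and log2(FPKM + 0.1) gave 1.88. The 0 calls among the other models of the locus were found in all 17. The number of models called was 215 with plain library totals, 396 with DESeq2, 155 and 185 with limma-trend on log2(FPKM + 1) and log2(FPKM + 0.1), and 243 without mock 3 and hematin 1; leaving out 1 library gave 13 to 211. Neighbouring pairs with both models called numbered 10, 21, 9, 11 and 10 in the same fits and 8 with no filter, and 0 to 11 with 1 library left out. The cause was not tested. Models with a likeness of at least 0.95 numbered 11 by Spearman correlation and 18 by deviations from the group means. That cut is stricter for Spearman correlation, which reaches it without ties only if the order of all samples is identical. With 3 samples a group, the direction of non-overlapping values cannot change when a library is left out. No paired analysis was possible because no number in the labels occurs in both groups.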

Other observations

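One model near the pair in identifier order was prominent in a single library. uc007kmt.2, too scarce to be tested, had 6, 0 and 39 counts in mock 1, 2 and 3, and 4, 0 and 0 counts in hematin 1, 2 and 3. Mock 3 is also the mock sample with the highest FPKM of uc007kmp.1 (24.4) and of uc007kmq.2 (6.85). Whether these values are related was not tested.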
